A study of Mus musculus with 15 samples.

Results

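The 7 genes described here, Bmper, Bmp2, Id1, Id2, Id3, Smad6 and Smad7, belong to bone morphogenetic protein (BMP) signaling. They were found by symbol among 55450 counted mouse gene IDs, and all 7 passed the filter on low counts. The choice of genes was based on measured values, because Bmper was proposed for its higher level in Old than in Adult livers of these same mice. The levels of these genes in that contrast are therefore given as a description, with no test.

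BMPs are secreted ligands that bind a pair of receptor types on the cell surface. The receptors phosphorylate SMAD proteins, which enter the nucleus with Smad4 and turn on target genes such as the Id genes. Secreted proteins that bind the ligands, Bmper among them, raise or lower how much ligand reaches the receptors, and Smad6 and Smad7 are induced by the pathway and feed back to inhibit it. In the liver, endothelial cells release BMP ligands, and hepatocytes respond by making hepcidin, the hormone that limits iron uptake, which is encoded by Hamp.

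Liver mRNA was sequenced from 15 female C57BL/6 mice, 5 per group and 1 library per mouse. The labels give an age of 6 months for the Adult group, A1 to A5, and of 22 months for the Old group, O1 to O5, and both received corn oil by daily gavage. PDX mice (P1 to P5) are also labeled 22 months and received protectin DX, a lipid mediator made from docosahexaenoic acid, in corn oil at 30 ng per g of body weight. Gavage lasted 9 weeks by the treatment protocol and 8 by the series text. The ages are those at the start of the study, before gavage began, so the mice were older when their livers were taken. All mice ate chow and were obtained from the same supplier. Counted read pairs ranged from 22424383 in A3 to 36070835 in A1, with medians of 29648247 in Adult, 26607323 in Old and 28692112 in PDX mice.

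The tissue label was checked with hepatocyte markers. All 6 of 6 passed the filter, Alb was the most abundant at a mean of 113000 CPM (counts scaled by library size and TMM factor), and none was at 0. Their summed level was lowest in O5, at 47000 CPM, and next lowest in O2, at 75600 CPM, against 107000 to 202000 CPM in the other mice. The sum was mostly Alb, at 34700 CPM in O5. Ttr, Cyp2e1 and Serpina1c were also lowest in O5. Not all 6 were low there, since Apoa1 (6330 CPM) and Cps1 (3670 CPM) lay within the range of the other mice.

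Bmper (ENSMUSG00000031963, chromosome 9 of GRCm38, 23223076 to 23485200, plus strand) encodes a secreted protein that binds BMPs. Its level was 2.61, 1.94, 2.74, 2.42 and 2.21 CPM in A1 to A5, and 3.61, 3.66, 4.94, 7.65 and 307 CPM in O1 to O5. In P1 to P5 it was 6.71, 14.7, 2.27, 7 and 5.78 CPM. Every Old mouse lay above every Adult mouse, O5 lay far above all others, and P3 lay within the Adult range while the other PDX mice lay above it and within the Old range. Behind these values were 55 to 93 read pairs in Adult mice, 85 to 206 in O1 to O4 and 8514 in O5. The group means were 2.38 ± 0.319 CPM in Adult, 65.4 ± 135 CPM in Old and 7.29 ± 4.55 CPM in PDX mice (SD, n = 5 each). Without O5 the Old mean was 4.96 ± 1.89 CPM (SD, n = 4). The fitted log2 fold change of Old over Adult was 4.78 (standard error 1.23) with all mice and 1.06 without O5. These samples are bulk tissue, in which a change in the number of cells of a type and a change in RNA per cell cannot be told apart.

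Bmp2 (ENSMUSG00000027358), a ligand of the pathway, did not share that pattern. It was 21.3, 29.5, 23.2, 24.7 and 22.8 CPM in A1 to A5 and 22.3, 8.75, 17.9, 21.4 and 13.3 CPM in O1 to O5. In P1 to P5 it was 26.7, 20.6, 23.1, 14.5 and 17.5 CPM. O2 and O5 were lowest, and all 3 groups overlapped. The log2 fold change of Old over Adult was -0.54 (standard error 0.23).

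The Id genes encode inhibitors of basic helix-loop-helix transcription factors. Id1 (ENSMUSG00000042745) was 9.5, 4.26, 9.85, 3.4 and 5.48 CPM in A1 to A5 and 31.5, 16.3, 3.28, 8.92 and 36.3 CPM in O1 to O5, and lay between 5.18 and 18.2 CPM in PDX mice. O1 and O5 were highest and O3 was lowest, so that the Old mice spanned the whole range of the Adult mice. Id3 showed the same pair of high mice, with 153 CPM in O1 and 148 CPM in O5, against 24.3 to 58.8 CPM in the other Old mice, 28.8 to 79.6 CPM in Adult mice and 31.5 to 80.2 CPM in PDX mice. Id2 was the most abundant member per transcript length, at a mean of 46.5 RPKM (CPM per kilobase of exon), and ranged from 57.1 to 169 CPM in Adult, from 82.1 to 181 in Old and from 89.4 to 174 in PDX mice. The log2 fold changes of Old over Adult were 1.57 for Id1 (standard error 0.53), 0.87 for Id3 (0.45) and 0.22 for Id2 (0.31). With 1 mouse left out at a time, that of Id2 ranged from 0.05 (without O1) to 0.47 (without A1). That of Id3 ranged from 0.58 (without O5) to 1.15 (without A5).

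The inhibitory SMADs differed from each other in O5. Smad7 (ENSMUSG00000025880) was 47.8 CPM in O5, against 6.97 to 13 CPM in the other Old mice, 6.55 to 13.5 CPM in Adult mice and 6.38 to 13.7 CPM in PDX mice. Smad6 was 12.2 CPM in O5, within the Adult range of 7.16 to 14.3 CPM, and its highest value was 25.4 CPM in O1. The log2 fold change of Old over Adult was 0.79 for Smad7 (standard error 0.44) and 0.00 without O5. For Smad6 it was 0.54 (standard error 0.25) and 0.34 without O1.

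**Figure D1:**
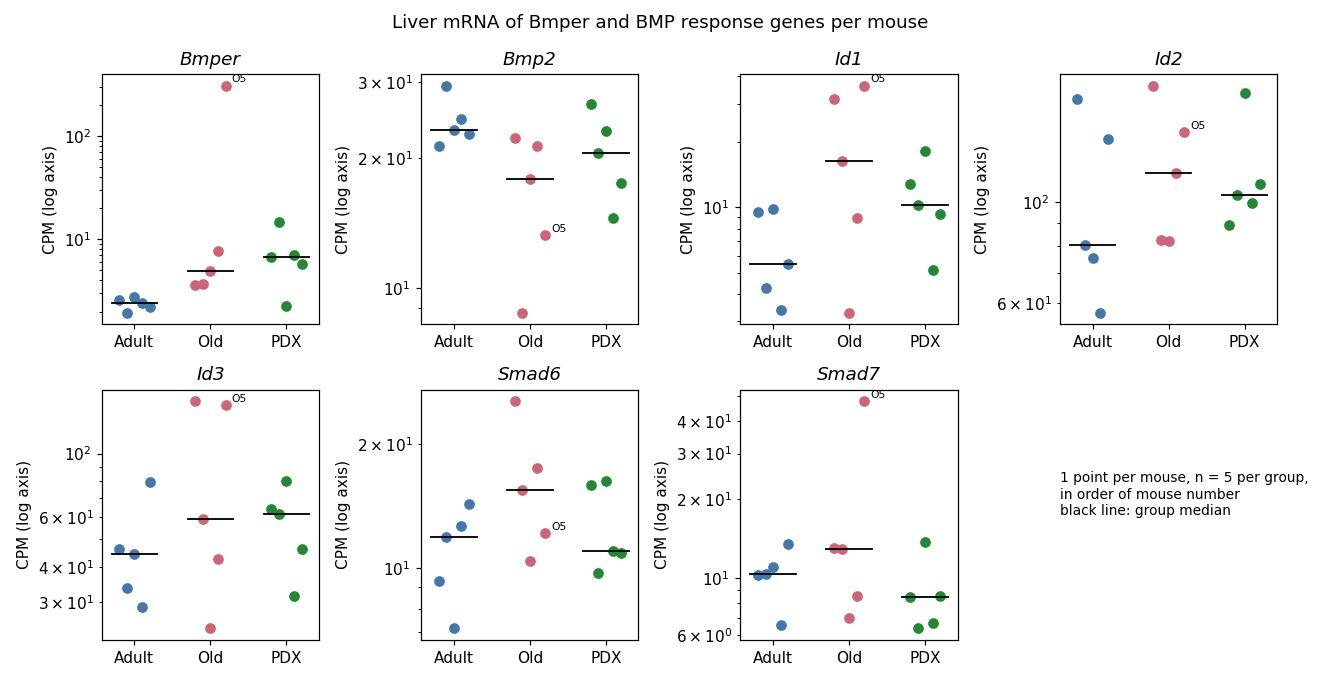
Level of each of the 7 genes in every mouse, in CPM on a log axis, by group (n = 5), with the group median as a black line and O5 marked. O5 stands at 307 CPM for Bmper and 47.8 CPM for Smad7, while the groups overlap for every gene but Bmper, whose Old mice all lie above the Adult mice.

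Per transcript length and over all 15 mice, the order of levels was Id2, Id3 (35.1 RPKM), Id1 (10.6), Bmp2 (5.77), Bmper (5.18), Smad6 (4.17) and Smad7 (2.72). The place of Bmper in this order came from O5: its median was 0.5 RPKM in Adult, 1.02 RPKM in Old and 1.39 RPKM in PDX mice, below the median of every other member in each group. The ranges of Id2 and Id3 overlapped, as did those of Id1, Bmp2 and Smad6 in Old mice. By the Adult medians Bmp2 (6.52 RPKM) lay above Id1 (4.72 RPKM), while Id1 lay above Bmp2 by those of Old and PDX mice.

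The comparison of PDX with Old mice asked whether treatment altered these genes in old animals. It shares the Old mice with the contrast that singled out Bmper, so Bmper is given here as a description, with no test. None of the other members had an adjusted p under 0.05 by the quasi-likelihood test of edgeR, with Benjamini-Hochberg adjustment over all tested genes. Of the 15808 tested genes, 0 (0%) had one, and 834 had an unadjusted p under 0.05. DESeq2 also called 0 genes. Bmper had a log2 fold change of -3.17 (standard error 1.13). All 5 of 5 PDX mice lay below its Old mean, which O5 set, and 4 of 5 lay above its Old median of 4.94 CPM. Without O5 the value reversed to 0.55. Smad7 stood at -1.03 (standard error 0.44) and Id1 at -0.78 (0.52), both with an edgeR adjusted p of 0.793, and without O5 they stood at -0.24 and -0.42. The other members lay between -0.59 and 0.29. No member had PDX and Old mice that did not overlap, against 0.342% of all tested genes.

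The comparison of PDX with Adult mice shares the Adult mice with the contrast that singled out Bmper, so Bmper is again described with no test. None of the other members passed, against 2.66% of tested genes. Bmper was higher in 4 of 5 PDX mice than in every Adult mouse, with a log2 fold change of 1.61 (standard error 1.11). The value was 1.61 (standard error 0.38) without O5 and 1.62 (standard error 0.37) when only Adult and PDX mice were fitted. Id1 stood at 0.78 (standard error 0.53, edgeR adjusted p = 0.423), and the remaining members lay between -0.24 and 0.28. No member had groups without overlap here, compared with 19.9% of tested genes.

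The wider pathway was described with 5 lists of ligands, receptors and co-receptors, extracellular modulators, SMADs with their regulators, and response genes, 74 genes in all, of which 57 passed the filter. In Old against Adult mice Bmper is set aside, since its choice fixed its direction there. Of the remaining pathway genes, Fstl1 alone passed the threshold, where 6.78% of tested genes passed. Groups did not overlap for 4 of the 57, against 8.13% of tested genes, and 1 of the 7 members, Bmper, was among them. Since Bmper was selected on this contrast, nothing is read from these counts. With Bmper kept in, the count past the threshold ranged from 0 to 8 when 1 mouse was left out. It was 0 without any 1 Adult mouse and 8 without O5. Over all tested genes these same fits called 156 to 243 and 2115, against 1072 in the main fit. The pathway count thus moved along with that of all genes. The median log2 fold change was 0.15 over the 57 genes and 0.07 over all tested genes.

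Fstl1 (chromosome 16), a secreted follistatin-like glycoprotein that binds BMP ligands, was 7.67, 7.19, 8.75, 7.06 and 6.57 CPM in A1 to A5 and 9.17, 23.3, 12.3, 10.4 and 26.6 CPM in O1 to O5. Every Old mouse lay above every Adult mouse, and O2 and O5 were highest. Its log2 fold change was 1.14 (standard error 0.29), and the PDX mice, at 8.39 to 17.5 CPM, overlapped both groups.

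Tob1 (chromosome 11, 94211454 to 94215495), which encodes an antiproliferative protein that binds SMADs, was the only one of the 57 to pass between PDX and Adult mice (1.75%, below the background of 2.66%). It was 131, 333, 128, 233 and 195 CPM in A1 to A5 and 82.5, 83.6, 86.2, 79.9 and 94.6 CPM in P1 to P5. All PDX mice lay below all Adult mice, and Tob1 fell by 1.26 on the log2 scale (standard error 0.25, edgeR adjusted p = 0.0157). In Old mice it ranged from 73.9 to 144 CPM, which overlapped both groups. Groups did not overlap for 11 of the 57 genes between PDX and Adult mice, near the 19.9% of all tested genes. The count of pathway genes past the threshold was 6 without O2, 8 without O5, 0 without P2 and 16 when only Adult and PDX mice were fitted. Over all tested genes these same fits called 1766, 1744, 172 and 4529, against 420 in the main fit, so the pathway count moved along with that of all genes. Bmper was kept in these pathway counts, although it is only described in this comparison.

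By list, per length and over all 15 mice, the most abundant genes were Gdf2 among ligands (9.68 RPKM) and Tmprss6 among receptors and co-receptors (156 RPKM). Bmp1 led among modulators (18 RPKM), Tob1 among SMADs and regulators (59.4 RPKM) and Hamp among response genes (1010 RPKM). Not every group had this order. Tfr2 (148 RPKM) exceeded Tmprss6 (127 RPKM) in the means of Old mice, and Hamp2 (1460 RPKM) exceeded Hamp (1010 RPKM) in those of Adult mice. Tmprss6, a protease that lowers BMP signaling in hepatocytes by cleaving the co-receptor hemojuvelin, was 193 CPM in O5 and 288 CPM in O2, against 473 to 704 CPM in the other mice. Gdf2, a ligand of endothelial receptors, was lowest in O5 at 8.04 CPM, against 22.9 to 45.5 CPM elsewhere. Bmp1, a protease that cleaves the BMP antagonist chordin, was lowest in O2 at 81.3 CPM.

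Hepcidin transcripts were the most variable of the response genes. Hamp was 270, 342, 539, 236 and 680 CPM in A1 to A5 and 606, 43.7, 19.8, 457 and 1920 CPM in O1 to O5. In P1 to P5 Hamp was 387, 240, 344, 7.82 and 137 CPM. Its copy Hamp2 was 667 to 1160 CPM in Adult mice, but 307, 2.17, 30.8, 35.4 and 0.685 CPM in O1 to O5 and 16.8 to 164 CPM in PDX mice. O5 thus had the highest Hamp and the lowest Hamp2 of all 15 mice, and every older mouse lay below every Adult mouse for Hamp2. The PDX over Adult log2 fold change of Hamp2 was -3.78 (standard error 1.19), which missed the threshold (edgeR adjusted p = 0.1) and passed it without O5 (edgeR adjusted p = 0.0282). Of 361 windows of 50 bases, the read length, in the Hamp transcript, 60 (16.6%) also occurred in Hamp2, so that such reads could not be told apart by themselves and both levels are uncertain.

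The TGF-beta arm, a related pathway kept apart from the BMP lists, had 4 of 16 genes past the threshold between Old and Adult mice (25%, against 6.78% of tested genes), all higher, among them Tgfb3, Ccn2 and Ltbp1. Groups did not overlap for 1 of the 16, Ltbp1, against 8.13% of tested genes. These calls did not hold in every fit: in alternatives added after the data were seen, the count was 0 with only Old and Adult mice fitted, 0 or 1 without any 1 Adult mouse, 3 without O5 and 7 with DESeq2. Over all tested genes these same fits called 105, 156 to 243, 2115 and 2524, against 1072 in the main fit. In the main fit of this contrast, 4 of 8 smooth muscle or myofibroblast markers were also called higher, with a median log2 fold change of 1.55 over the 8. Markers of other cell types were called higher too, among them 6 of 6 for neutrophils and myeloid progenitors, with a median of 5.17. The part of any cell type in the levels of the TGF-beta arm was not tested. Ccn2, a matricellular protein, was 12.7 to 36.1 CPM in Old and 3.37 to 15.4 CPM in Adult mice. Tgfb3 was 8.12 CPM in O5 and 1.92 to 4.21 CPM in the other Old mice, which overlapped the Adult range of 0.951 to 2.55 CPM through O3. Ltbp1, which anchors latent TGF-beta, was above every Adult mouse in all Old mice, with a log2 fold change of 1.15 (standard error 0.28). Tgfbi was the most abundant of the list, at 19.5 RPKM. No gene of the 16 passed between PDX and Old mice, as for all tested genes, or between PDX and Adult mice, against 2.66%. PDX and Old mice did not overlap for 1 of the 16, Smad2, against 0.342% of tested genes. PDX and Adult mice did not overlap for 4 of the 16, against 19.9%.

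**Figure D2:**
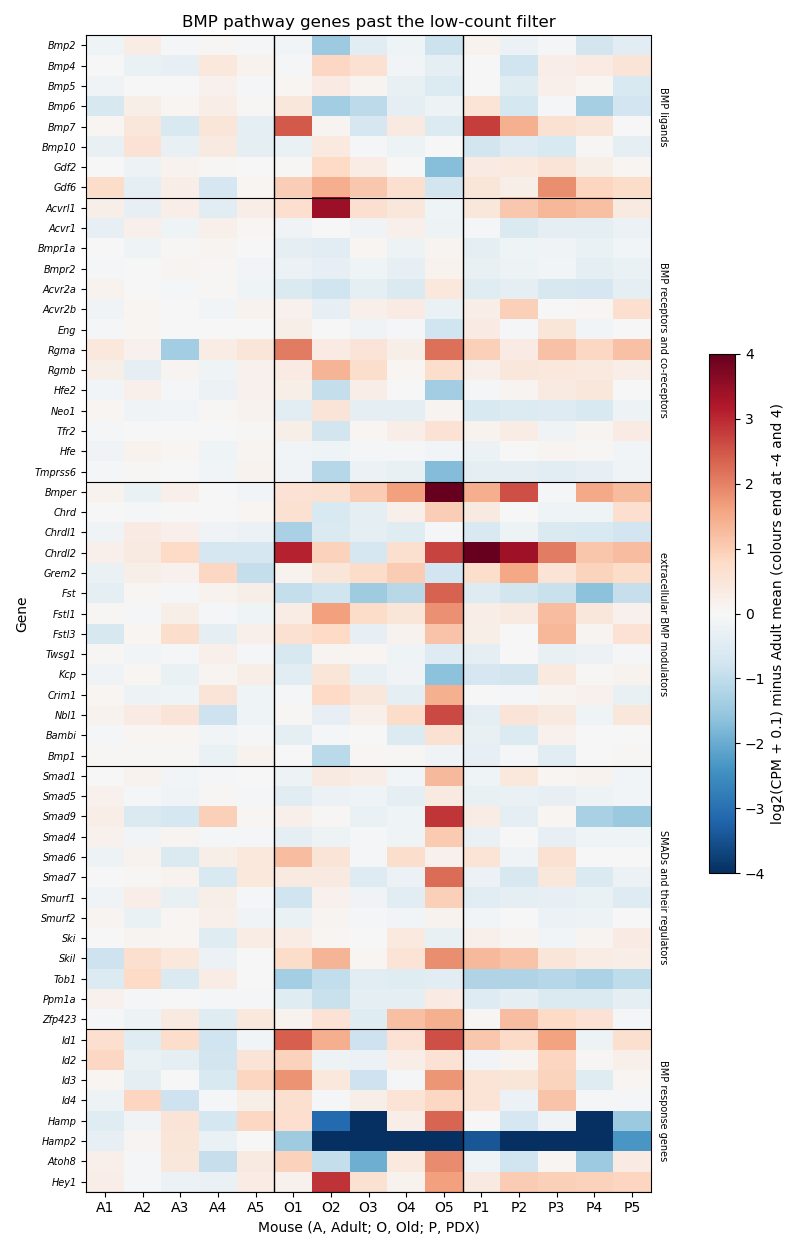
Each of the 57 BMP pathway genes (rows, grouped by role, a gene of 2 lists drawn once) in each mouse (columns), as log2 of CPM plus 0.1 minus the mean of the Adult mice, red higher and blue lower. The column of O5 is the most saturated, with Bmper, Smad9, Smad7, Fst and Hamp higher and Hamp2, Gdf2 and Tmprss6 lower, and Hamp2 is lower in every older mouse.

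O5 was the highest mouse for 23 of the 57 pathway genes (40.4%), a larger share than its 25.9% of all tested genes, and O2 for 8 (14%), against 20.1%. Bmper was kept among the 23, although it was chosen for a level in Old mice that O5 sets. The remaining 13 mice were each highest for 0 to 5. This count was made for all mice after the values had been seen, and no test was made of it. Among the 7 members, O5 was highest for 3 (Bmper, Id1 and Smad7), O1 for 3 (Id2, Id3 and Smad6) and A2 for 1 (Bmp2). Of all tested genes, these mice were highest for 25.9%, 10.4% and 5.19%.

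Markers of other cell types also moved in O5. The 8 smooth muscle or myofibroblast markers, led by Col3a1, summed to 525 CPM in O5 and 348 CPM in O2, against 74.2 to 98.7 CPM in Adult mice, 105 to 147 CPM in the other Old mice and 91.6 to 270 CPM in PDX mice. All 8 were highest in O5. In O2 the sum was mostly Col3a1 (204 CPM) and Col1a1 (90.1 CPM), while Cnn1 (0.556 CPM) lay within the Adult range and Myh11 (7.05 CPM) below it. The 8 sinusoidal endothelial markers, led by Clec4g, summed to 213 CPM in O5, the lowest of all mice, against 337 to 460 CPM elsewhere. Not all 8 were low there, since Lyve1 was highest in O5 (31.2 CPM, against 6.09 to 22.9 CPM) and Pecam1, at 30 CPM, lay within the range of the others. The 8 mesothelial or portal fibroblast markers, led by Eln, summed to 61.3 CPM in O5 and 56.4 CPM in O2, and to 15.9 to 54.2 CPM in the rest. In O5 that sum came mostly from Fbln2 (22.3 CPM) and Eln (18.5 CPM, second to P3). Msln was also highest there (4.8 CPM, against 0.276 to 2.33 CPM), while Upk3b (0.938 CPM) was among the lowest and Gpm6a (1.48 CPM) and Wt1 (1.66 CPM) lay within the range of the others. Of the adipocyte markers, Cidec alone passed the filter, at 18.6 CPM in O5 and 0.316 to 1.65 CPM in all others. The 5 Kupffer cell markers, led by Cd5l, had their lowest sum in O5 (237 CPM) and their highest in O2 (2420 CPM), although 1 of them, Marco, was 91.3 CPM in O5 and 38.5 CPM in O2, against 4.93 to 31.9 CPM in Adult mice, and was highest in P3 at 197 CPM. The 8 stellate cell markers, led by Dcn, summed to 640 CPM in O5, inside the range of the other mice (472 to 685 CPM). Within that sum Dcn was highest in O5 (355 CPM, against 174 to 306 CPM), while Reln (27.1 CPM) and Colec11 (25.1 CPM) were lowest there. No marker of these lists was at 0 in all mice, and their part in the levels of Bmper and Smad7 was not tested.

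The 5 cholangiocyte markers, led by Spp1, summed to 95.8 CPM in O5 and 104 CPM in P3, against 37.7 to 88.5 CPM in the rest. Spp1 alone put P3 first (87.1 CPM, against 56.4 CPM in O5), and the other 4, Krt19 (10.5 CPM), Krt7 (6.42), Epcam (12) and Sox9 (10.5), were highest of all mice in O5. The 6 neutrophil and myeloid progenitor markers, led by Prtn3, were 2.35 to 6.02 CPM in Adult mice and 17.8 to 210 CPM in older mice. The 4 dividing cell markers past the filter, led by Mki67, were highest in O2, at 124 CPM, and were 5.37 CPM in O5.

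Among the 5 genes with the level pattern most like that of Bmper, by rank correlation of log2 CPM over the 15 mice, were Stat3, Zfp207, Cyb561 and Orm2. Their rank correlations were 0.93, 0.91, 0.91 and 0.91, and Pearson's r was 0.91, 0.97, 0.75 and 0.79. Stat3, a transcription factor activated by cytokines such as interleukin 6, had mean levels of 125 CPM in Adult, 248 CPM in Old and 234 CPM in PDX mice, and 504 CPM in O5. Orm2, an acute-phase plasma protein, averaged 31.1, 253 and 328 CPM in the same order. O5 was the highest mouse for Stat3, Zfp207 and Cyb561, and P2 for Orm2. Without O5 and P2, the pair highest in Bmper, their rank correlations lay between 0.86 and 0.89. The other members were less alike, with rank correlations with Bmper of -0.60 for Bmp2, -0.32 for Smad7, -0.05 for Smad6, 0.07 for Id3, 0.11 for Id2 and 0.28 for Id1. Pearson's r was -0.42, 0.59, -0.06, 0.44, 0.18 and 0.49 in the same order, so that the 2 measures had opposite signs for Smad7. These are descriptions over mice that share groups and ages.

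Each member was related to the frailty index, a score of health deficits, and to body weight change, the average percent change per week, over the 10 older mice, 14 relations in all. O5 had the highest frailty index, 0.56, and the largest average loss of weight, -3.55% per week, while the other 9 ranged from 0.06 to 0.33 and from -1.2% to 3.07%. Bmper was chosen for its level in these same Old mice, which O5 sets, so its relations are given as a description. With the frailty index, Bmper had a Pearson's r of 0.82 and a Spearman's rho of 0.47. Without O5 and P1, the mice farthest from the median index, r was 0.32, and without O5 alone it was 0.16, so the value rested on O5. With body weight change, Bmper had an r of -0.68 and a rho of -0.03, and r was 0.30 without O2 and O5. For the other 6 members no permutation p was under 0.05 before adjustment, with a smallest of 0.0728 for r (Smad7 with the frailty index, r of 0.68, and -0.39 without O5 and P1) and 0.214 for rho (Id2 with the frailty index, rho of 0.43). The mice were euthanized in batches that the labels do not give, so no within-batch value was computed.

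RefSeq promoter sequences (GRCm38.p6) had an entry for 4 of the 7 members, Bmper, Id2, Id3 and Smad6. In the 250 bases before the start, 7 motifs were searched on both strands in these genes and in Hamp, Hamp2, Atoh8, Fstl1, Tob1, Stat3, Zfp207 and Orm2. The motifs were chosen with the data known and not from a list set beforehand, and GGAGCC was added after matches of the others had been seen. GGCGCC (9.59% of 32851 promoters) was found in Id2 and Hamp and not in Bmper, Id3, Smad6 or Hamp2, and GGAGCC (reverse complement GGCTCC, 26% of promoters) was found 3 times in Bmper, 2 times in Smad6 and 1 time each in Id2, Id3, Hamp and Fstl1. TTCNNNGAA (7.02%) was found in Hamp and Hamp2 and in none of the 4 members, and CACGTG (6.02%) in Atoh8 and Zfp207. GTCTAGAC (0.167%), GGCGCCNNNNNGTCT (0.07%) and GGCGCCNNNNNAGAC (0.0335%) were found in none of these genes. A match is a description of letters and not of a bound site.

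Hamp and Hamp2 are shown because their levels parted most in O5, and Bmper because its level set that mouse apart. Hamp was also well above Hamp2 in other older mice, such as O4 (457 against 35.4 CPM) and P3 (344 against 17.5 CPM). The sequences are those of the reference genome and not of these mice, so they cannot bear on a difference between mice. Capitals mark GGCGCC in Hamp (chr7:30944030-30944279, minus strand) and GGAGCC read as its reverse complement in Bmper (chr9:23222826-23223075, plus strand), and Hamp2 (chr7:30924182-30924431, minus strand) has neither. The stretch of Hamp2 lies before its start in RefSeq. It lies inside the gene in the GENCODE annotation used for lengths (30922372 to 30924681). After the same 15 bases, Hamp2 differed from the 6 bases of GGCGCC in Hamp by G4A, counted from the first base of the motif on the gene's strand. The motif began 109 bases before the start in Hamp, and the matches in Bmper began 164, 81 and 27 bases before it.
Bmper: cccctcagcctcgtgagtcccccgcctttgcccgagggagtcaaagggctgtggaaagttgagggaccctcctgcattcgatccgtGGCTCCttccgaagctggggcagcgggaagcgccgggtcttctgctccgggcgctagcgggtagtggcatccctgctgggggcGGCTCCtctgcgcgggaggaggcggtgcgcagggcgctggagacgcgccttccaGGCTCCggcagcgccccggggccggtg
Hamp: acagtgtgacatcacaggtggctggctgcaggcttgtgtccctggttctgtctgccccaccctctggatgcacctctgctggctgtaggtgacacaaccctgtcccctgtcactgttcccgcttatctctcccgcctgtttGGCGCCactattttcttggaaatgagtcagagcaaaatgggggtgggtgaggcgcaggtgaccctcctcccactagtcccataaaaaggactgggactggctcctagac
Hamp2: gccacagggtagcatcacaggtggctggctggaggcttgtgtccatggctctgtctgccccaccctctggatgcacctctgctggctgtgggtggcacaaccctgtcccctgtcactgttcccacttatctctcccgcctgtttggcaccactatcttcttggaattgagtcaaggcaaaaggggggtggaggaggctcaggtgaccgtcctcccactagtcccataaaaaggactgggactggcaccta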

How the data were processed

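Strand-specific libraries of poly(A) RNA gave read pairs of 50 bases per end. The authors aligned them to mm10 with STAR (2.6.0c) and counted unique proper pairs per Ensembl gene on the gene's strand with featureCounts of Subread (1.6.2), and the deposited values are counts without normalization. A deposited table of transformed values was not used here, and 0 columns were without a sample. Symbols were found for 55104 of 55450 gene IDs. Lengths and coordinates came from the GENCODE annotation of GRCm38.

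Counts were analysed with edgeR 4.0.16 in R 4.3.3: filterByExpr by group (minimum count 10), TMM scaling, a quasi-likelihood fit of all 15 mice with 1 coefficient per group, and Benjamini-Hochberg adjustment over the 15808 genes tested, threshold 0.05. Log2 CPM used a prior count of 2. Correlations were tested in Python 3.11.15 with two-sided permutation tests (100000 resamples, all orderings under 10 mice). Steps were tested on simulated data. Alternatives were the Wald test of DESeq2 1.42.0, other scalings, filters and sets of mice, and a replicate block. The members, lists and tests were chosen with earlier results of these data known. All members were named. From each pathway list the genes past the threshold, at most 6, and the most abundant per length were named, and other genes were named after their values were seen. Some genes and a marker list that these rules name are not reported here.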

Additional observations from a re-analysis of the deposited data

Results flagged for a closer look

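In each group of 5 mice, the gap between the highest or lowest mouse and its nearest neighbour was divided by the range of the group in log2 CPM, for 21 named genes. Of 63 groups, 7 exceeded the critical value of 0.71. Chance gives about 1 in 20 for genes chosen without regard to their values, which does not hold for genes named by them, so the values are a description. Bmper, chosen for its level in these Old mice, had a share of 0.832 in O5 (307 CPM against 3.61 to 7.65 CPM in the other Old mice). Zfp207 was named for its likeness to Bmper, so that its share of 0.869 in O5 (123 CPM against 68.1 to 73.6) is no separate support. O2 was set apart by Bmp1 with 0.826 (81.3 CPM against 156 to 178) and by Tgfbi with 0.727 (150 CPM against 57.3 to 74.6). Among Adult mice, A4 was lowest in Bmp1 with 0.744 (143 CPM against 175 to 187). Among PDX mice, P3 was highest in Fstl1 with 0.737 (17.5 CPM against 8.39 to 10.2), and P4 was lowest in Hamp with 0.733 (7.82 CPM against 137 to 387).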

How the results depend on the processing

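With 1 mouse left out at a time, the log2 fold change of Bmper ranged from 1.06 (without O5) to 5.14 for Old over Adult, from -3.59 to 0.55 (without O5) for PDX over Old and from 1.19 to 1.84 for PDX over Adult. Genes called ranged from 156 to 2178 between Old and Adult, from 166 to 1766 between PDX and Adult, and were 0 throughout between PDX and Old, and pathway genes from 0 to 8 in both comparisons with Adult. The correlation of Bmper with the frailty index ranged from 0.16 (without O5) to 0.88, and that with body weight change from -0.84 to -0.19. The log2 fold change of Id2 ranged from -0.26 to 0.10 for PDX over Old (0.10 without O1 and 0.01 without P1) and from -0.05 to 0.40 for PDX over Adult (-0.05 without P3 and -0.01 without A4).

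With DESeq2, 2524 genes and 10 pathway genes were called between Old and Adult, and 1383 and 3 between PDX and Adult. DESeq2 gave Bmper log2 fold changes of -3.19 for PDX over Old and 1.62 for PDX over Adult with no adjusted p, so its calls there are not known. Without a low-count filter, 665 genes were called between Old and Adult. With only the mice of both groups compared, 105 genes and 0 pathway genes were called between Old and Adult, and 4529 and 16 between PDX and Adult, with Bmper at 1.62. With both O2 and O5 left out, Bmper was 1.19 for Old over Adult, 0.43 for PDX over Old and 1.62 for PDX over Adult. Smad7 was then -0.11 for Old over Adult, and 4004 genes and 16 pathway genes were called between PDX and Adult. Without the pair of mice farthest from the median, the correlation of Bmper was 0.32 with the frailty index and 0.30 with body weight change. Beyond fewer mice or genes in the fit, the cause was not tested.

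With the replicate number as a block (a paired fit), Bmper was 2.30 for Old over Adult and -0.79 for PDX over Old, Id2 was 0.01 for PDX over Old, and 237 genes and 0 pathway genes were called between Old and Adult. The numbers share no animal, and the deviations of same-numbered mice had correlations of -0.215 to -0.11 between Old and Adult, -0.0389 to 0.285 between PDX and Old and -0.0469 to 0.146 between PDX and Adult, not all over 0.1 in any comparison, and 0, 2 and 2 of 5 were best with their own number. With library sizes alone, added after the data were seen, Bmper stood at 4.86 for Old over Adult. With 55 to 93 read pairs per Adult mouse, depth limits Bmper there.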
